A study of Mus musculus with 16 samples.

Results

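The step from the monocyte and dendritic cell progenitor (MDP) to the common monocyte progenitor (cMoP) was measured in wild-type (WT) mice by comparing 2 arrays of sorted WT cMoPs with 2 arrays of sorted WT MDPs. These 4 arrays were chosen by their titles, out of 16 arrays in the series. All 4 samples were primary cells taken directly from bone marrow, with no transduction and no other treatment. The 2 arrays of a stage carry the experiment numbers 1 and 2, and the study states that its experiments were independent. Mouse strain, age, the number of animals behind a sample and the antibody gates of the sorts are not given in the sources used here. The same step in mice lacking Irf8 (Irf8KO, 2 MDP and 2 cMoP arrays), prepared in the same way, was set beside it. The remaining 8 arrays, from a cultured cell line, were not analysed here.

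The MDP is a bone marrow progenitor that carries the receptor tyrosine kinases KIT, CSF1R and FLT3 together with the chemokine receptor CX3CR1, and it can give rise to monocytes, macrophages and dendritic cells. The cMoP lies downstream of it. It keeps KIT and CSF1R, loses FLT3, gains LY6C, and makes monocytes but hardly any dendritic cells. FLT3 ligand supports the development of dendritic cells and CSF1 that of monocytes and macrophages, so loss of FLT3 is the surface change by which the later stage is usually told from the earlier.

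Single-colour signals were compared on a log2 scale on which the median of the 11964 genes tested is 0 on every array, and changes are WT cMoP minus WT MDP on that scale. A change of 1 is therefore 2-fold. The 2 arrays of a stage correlated at 0.9957 (MDP) and 0.997 (cMoP). Overall brightness differed between the stages, with a 75th percentile of 76.68 and 80.96 signal units on the MDP arrays and 544.0 and 567.9 on the cMoP arrays. The MDP arrays shared one slide and one scan and the cMoP arrays another, so stage and slide cannot be told apart, and every change below is a difference between slides as well as between stages. The sex of the animals moved with stage too, as Xist was well above background on both MDP arrays and neither cMoP array, while the Y-linked genes Ddx3y and Eif2s3y showed the opposite pattern. The Irf8KO arrays showed the same switch, with Ddx3y at -6.58 and -6.6 in MDPs and 0.19 and 0.17 in cMoPs. Sex, stage and slide cannot be told apart in either genotype.

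Because the choice of scaling moved the median change of all genes between -0.80 and -0.025, a gene was said to rise or fall only when limma's test (adjusted p under 0.05) called it in the same direction under each of 5 scalings. The p given beside a gene is the largest of these 5 adjusted p. By this rule 1101 of 11964 genes rose (9.2%) and 4635 fell (38.7%). The numbers in the 2 directions are not comparable, since most scalings placed the bulk of genes below 0, which makes a fall easier to call than a rise. Lower calls outnumbered higher calls in each single scaling, but by very different margins, from 1956 higher and 7780 lower with the 75th percentile (16.3% and 65.0% of all) to 3996 and 5163 with centred arrays. Of all genes 319 rose at least 4-fold (2.67%) and 108 fell at least 4-fold (0.903%), while 1030 rose (8.61%) and 652 fell (5.45%) at least 2-fold. The balance of 4-fold changes varied as well, with 205 higher and 185 lower when the 75th percentile alone was used and 138 and 327 with the array median. They were 58 and 43 with another background correction (normexp), and 65 and 72 with probes detected on all 4 WT arrays. Over the 5 scalings those probes gave 111 rises and 30 falls, in place of 319 and 108. The normexp correction added an offset of 50 signal units on every array. That offset weighs more on the dimmer MDP arrays once arrays are scaled, so normexp calls of dim genes carry this setting. Within the list of genes ranked on each array, the median gene moved by 3.67 percentile points between stages.

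The marker genes of the stages were examined first. Flt3, the receptor by which the stages are usually told apart, had a log2 signal of 1.94 and 1.97 on the MDP arrays. On the cMoP arrays it was at -1.99 and -1.97. The 2 stages did not overlap, as was the case for 88.4% of all genes tested, and Flt3 went from rank percentile 74.7 to 26.6 of the array. It fell by 3.94 ± 0.048 (SE, 2 arrays per stage; largest adjusted p 2.09e-11, limma), and a second Flt3 probe changed by -2.17. Whether FLT3 was a gate of these sorts is not given. If it was, the fall of Flt3 was set by the sort and its p adds nothing. Kit, the stem cell factor receptor, stood at 2.47 and 2.55 in MDPs and 1.83 and 1.94 in cMoPs and fell by 0.62 ± 0.042 (largest adjusted p 1.33e-06, limma). Csf1r, the receptor through which macrophage growth factor acts, was among the brightest genes of both stages, with 5.68 on both MDP arrays and 5.35 and 5.36 on the cMoP arrays. It fell by 0.33, but 2 other Csf1r probes changed by 0.42 and 1.16, so its direction differed between probes. Its rank percentile was 97.5 in both stages. Cx3cr1, the fractalkine receptor, fell by 0.67 and Cd34, a sialomucin of early progenitors, by 0.76. Their second probes, both detected, changed less, by -0.30 and -0.23.

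Ly6c1, which encodes one of the LY6C antigens, was very bright in both stages, at 8.16 and 8.13 in MDPs and 7.64 and 7.67 in cMoPs, and had no single direction over the 5 scalings. No probe was matched to Ly6c2. Genes of mature monocytes sat between the stages without a call. Ccr2, the receptor that lets monocytes leave the marrow, was at 1.01 and 0.96 in MDPs and 1.80 and 1.85 in cMoPs, a difference of 0.84 that missed the rule (largest adjusted p 0.177). Itgam (CD11b) differed by 0.77, Ms4a4c by 0.88, Ms4a6c by 0.02 and the coagulation factor gene F13a1 by -0.24, none of them called in all 5 scalings, and the signs of Ms4a6c and F13a1 turned with the scaling. The dendritic cell gene Zbtb46 was not well above background on either MDP array, and neither Batf3 nor the late neutrophil gene Retnlg was detected in the progenitors.

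**Figure D1:**
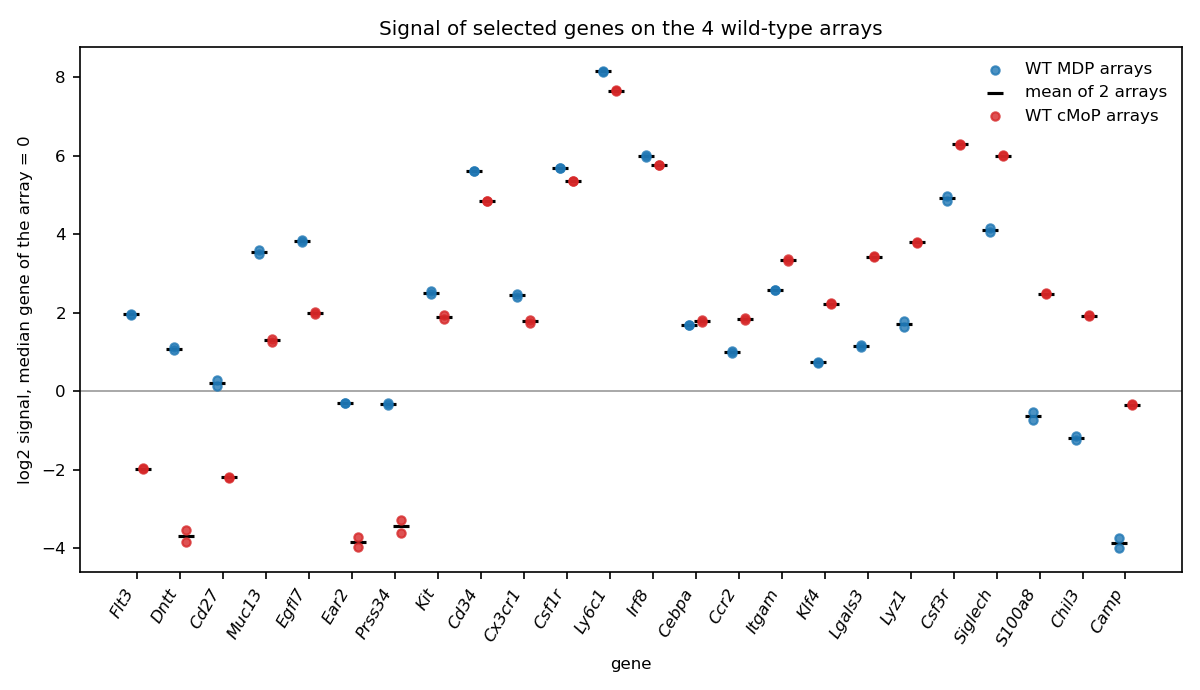
Log2 signal (vertical axis, 0 is the median gene of the array) of 24 genes, named along the horizontal axis, on the 2 WT MDP arrays (blue points) and the 2 WT cMoP arrays (red points), with the mean of each pair as a black dash. Replicate points nearly coincide for most genes. Flt3 falls from near 2 to near -2, Csf1r and Irf8 stay near 5.5 and 6, and Camp rises from about -4 to just below 0.

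Genes of stem and early progenitor cells were lower in cMoPs. Of the 23 tested of this list of 26, 20 fell (86.96% against 38.7% of all genes) and 1 rose (4.35% against 9.2%). Of the falls 13 were at least 2-fold, and the median change was -1.21 against -0.07 for all genes tested. Cd27, a TNF receptor family member, was at 0.12 and 0.28 in MDPs and -2.21 and -2.19 in cMoPs, and Muc13, an epithelial and progenitor mucin, at 3.60 and 3.50 against 1.26 and 1.34. Neither pair overlapped, as for 88.4% of all genes tested, and the falls were 2.40 ± 0.092 and 2.25 ± 0.047. Egfl7, a secreted factor also made by endothelium, fell by 1.85 and the transcription factor gene Sox4 by 1.68, with a second Sox4 probe at -1.77. Transcription factors of early haematopoiesis were among the falls, with Meis1 at -1.47, Gata2 at -1.21 and Hlf at -0.93. Ly6a, which encodes the stem cell antigen SCA-1, went the other way, from 1.55 and 1.59 to 2.48 and 2.50, and rose by 0.91 (largest adjusted p 0.0274).

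Several of the largest falls on genes detected on all 4 arrays belonged to no progenitor list. Angpt1, an angiopoietin made by early haematopoietic cells, was at -0.51 and -0.56 in MDPs and -3.48 and -4.41 in cMoPs. Rab37, a small GTPase of secretory granules, fell by 3.21 with a second probe at -3.00. Ptprcap, the CD45-associated protein, was at 3.28 and 3.24 in MDPs and 0.68 and 0.72 in cMoPs. The band 4.1 family gene Epb41l4b fell by 2.72, the sphingosine-1-phosphate transporter gene Spns2 by 2.75 and Ctla2a, a cysteine protease inhibitor gene, by 2.93. The 12 largest falls of this kind were Dntt, Flt3, Ear2, Angpt1, Rab37, Prss34, Ctla2a, Spns2, Epb41l4b, Ifitm1, Rtp4 and Ptprcap.

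Several genes of dendritic cells and of lymphoid priming fell along with Flt3. The dendritic cell list had 19 of 25 genes tested, of which 10 fell (52.6% against 38.7% of all genes) and 2 rose (10.53% against 9.2%), at a median of -0.51. Flt3 itself and Dntt are members of this list and are counted among the 10. Dntt encodes terminal transferase, the polymerase that adds nucleotides at antigen receptor joints, and is a known mark of lymphoid-primed progenitors. Its signal was 1.11 and 1.04 in MDPs and -3.53 and -3.84 in cMoPs, a fall of 4.76 ± 0.094 (largest adjusted p 1.43e-10) that was the largest among genes detected on all 4 arrays. Itgax (CD11c), Cd7 and Ccr7, the receptor of migrating dendritic cells, were well above background on both MDP arrays and on neither cMoP array, and were at least 3.77-fold, 4.51-fold and 1.94-fold higher in MDPs. Siglech, a lectin best known from plasmacytoid dendritic cells, was an exception, with 4.15 and 4.06 in MDPs and 5.98 and 6.005 in cMoPs. It rose by 1.89 ± 0.042. Its other probe was not detected and changed by 0.44. Of B cell genes 5 of 8 tested fell (62.5% against 38.7% of all genes), among them Blnk at -1.58, Rag2 (at least 1.42-fold lower) and Vpreb3 (at least 2.105-fold lower), while Cd22 rose by 2.34.

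Genes of basophils, mast cells and eosinophils formed the list with the lowest median, -1.54. Of 12 tested out of 19 listed, 9 fell (75% against 38.7% of all genes), 7 of them at least 2-fold. Tpsb2 rose, but its other probe changed by -0.02 and with normexp it was called lower (-0.34). Prg2, the eosinophil major basic protein, was at 0.49 and 0.38 on the MDP arrays and -5.66 and -5.65 on the cMoP arrays, where it was not well above background, so it was at least 36.1-fold higher in MDPs. Prss34, a basophil protease gene, was at -0.30 and -0.36 against -3.29 and -3.60 and fell by 3.12 ± 0.17. Cpa3, mast cell carboxypeptidase, was at least 7.05-fold higher in MDPs and Ear1, an eosinophil ribonuclease gene, at least 6.95-fold. Ear2 and Rnase2a, related ribonuclease genes that were placed in the primary granule list, fell by 3.53 and 2.17. Members of the Ear family are near-identical copies and their probes may share targets. In bulk RNA fewer cells of a type and less RNA per cell cannot be told apart.

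Megakaryocyte and platelet genes were lower as well, with 6 of 9 tested falling (66.67% against 38.7% of all genes) and none rising at a median of -1.10. The platelet chemokine gene Pf4 fell by 2.49 and the P-selectin gene Selp by 1.68, von Willebrand factor (Vwf) by 1.52, and Itga2b was at least 1.60-fold higher in MDPs. Gfi1b and Gata1, transcription factors of red cells and megakaryocytes, were well above background in MDPs only, at least 5.06-fold and 2.25-fold higher there. Of 10 erythroid genes tested 5 fell (50% against 38.7% of all genes) and 1 rose (10% against 9.2%), with Car2 (carbonic anhydrase) at -1.11 and Hba-a2 (alpha globin) at -0.53.

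The summed signal of the tested genes of other lineages, in units of the array's median gene, was lower in cMoPs for most lists. It went from 15.52 and 16.07 to 9.428 and 9.614 for the basophil, mast cell and eosinophil list, and from 1.854 and 1.786 to 1.103 and 1.107 for the megakaryocyte list. It was 9.556 and 9.868 against 5.808 and 5.821 for B cell genes and 40.88 and 40.11 against 22.90 and 22.86 for T and NK cell genes. The B cell sum was mostly Cd79b and the T and NK cell sum mostly Nkg7, so each follows a single gene. Late neutrophil genes ran the other way, at 23.56 and 22.08 in MDPs and 38.20 and 38.61 in cMoPs. Mature macrophage genes were faint in both stages, with sums between 0.4859 and 0.6976. The part of contaminating or lineage-primed cells in the changes of these lists was not tested.

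Genes of monocytes and phagocytes were higher in cMoPs in part. Of 35 tested monocyte and macrophage genes 11 rose (31.43% against 9.2% of all genes), all at least 2-fold, and 7 fell (20% against 38.7%), with a median of 0.52. Lgals3 (galectin-3) was at 1.18 and 1.11 in MDPs and 3.43 and 3.42 in cMoPs and rose by 2.28 ± 0.038 (largest adjusted p 1.04e-10). The lysozyme genes Lyz1 and Lyz2, which are close paralogues, rose by 2.08 and 1.59, and Fn1 (fibronectin) by 1.84. Cybb, the catalytic subunit of the phagocyte oxidase, was at -1.99 and -1.88 against -0.18 and -0.10, a rise of 1.80. It was the only rise among 7 oxidase genes (14.29% against 9.2% of all genes). Cyba and Rac2 fell by 0.42 and 0.62 (28.57% of the list against 38.7%). The other 4 were not called, as were 6228 of all 11964 genes. A second, detected Cyba probe changed by 0.01. Ahnak, a large scaffold protein, rose by 2.32. Its 3 other probes ranged from -0.08 to 3.75. Clec12a, an inhibitory lectin receptor of myeloid cells, was well above background only in cMoPs, at least 1.89-fold higher, though with normexp it was called in the opposite direction (-0.48). Crip1 and Apoe, a LIM protein and a lipid carrier made by macrophages, fell by 0.73 and 1.14, against the direction of most of that list.

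Among 19 transcription factors of the monocyte lineage tested, Klf4 and Tfec rose and 5 fell. Klf4, needed for classical monocytes, was at 0.75 and 0.72 in MDPs and 2.24 and 2.21 in cMoPs, and rose by 1.49 ± 0.10 (largest adjusted p 2.33e-06). Tfec, of the microphthalmia factor family, rose by 1.01. The share that rose was near that of all genes (10.53% against 9.2%), and the share that fell was lower (26.3% against 38.7%). Irf8, the factor removed in the knockout, was bright in both stages, at 6.02 and 5.97 in MDPs and 5.77 and 5.77 in cMoPs, a difference of -0.23 that did not hold in every scaling (largest adjusted p 0.186). Spi1 (PU.1) differed by 0.87 and Cebpb by 0.78, neither of them called in all 5 scalings, and Cebpa by 0.10, with a sign that turned with the scaling. Nr4a1, needed by patrolling monocytes, fell by 0.89 and Pou2f2 by 0.85, though a second Pou2f2 probe was at 0.05.

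Among receptors for growth factors, those for granulocyte factors rose while Flt3 fell. Csf3r, the G-CSF receptor, was at 4.97 and 4.85 in MDPs and 6.27 and 6.29 in cMoPs and rose by 1.37, and Csf2ra, the specific chain of the GM-CSF receptor, rose by 1.07. These were the only 2 rises among 30 cytokine and chemokine receptors tested (6.67% against 9.2% of all genes). Of the 30, 15 fell, Flt3 among them (50% against 38.7%). Receptors of innate sensing were mixed, with 6 of 23 tested rising (26.09% against 9.2% of all genes) and 7 falling (30.43% against 38.7%). Tlr9, a sensor of bacterial DNA, was at -0.98 and -1.06 against 0.52 and 0.48 and rose by 1.52. Tlr13, a sensor of bacterial ribosomal RNA, rose by 1.79, and Clec5a was detected in cMoPs only (at least 1.75-fold higher), though normexp gave a call in the opposite direction (-0.53). Tlr2 fell by 0.60 and Clec4e by 0.48.

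Calgranulins and other secretory products of the neutrophil and monocyte lineages gave the largest rises among listed genes detected on all 4 arrays. S100a8 was at -0.53 and -0.74 in MDPs and 2.47 and 2.49 in cMoPs, S100a9 at -0.86 and -1.10 against 2.15 and 2.09, and Chil3, a chitinase-like lectin, at -1.24 and -1.14 against 1.91 and 1.93. No MDP array overlapped a cMoP array for any of them, as for 88.4% of all genes tested, and the rises were 3.11 ± 0.055, 3.102 ± 0.084 and 3.11 ± 0.040. Camp (cathelicidin) rose by 3.53 ± 0.11 with a second probe at 3.48, and Fcnb (ficolin B) by 2.87. Ngp, a granule protein, and Cd177 were detected in cMoPs only (at least 2.26-fold and 2.06-fold higher), though normexp gave calls in the opposite direction (-0.53 and -0.44). Wfdc21 rose by 1.58. Not all late neutrophil genes followed. Ltf (lactoferrin) was well above background on 1 of the 4 arrays and differed by 0.09, while Mmp8 (neutrophil collagenase) fell by 1.26 and Cxcr2 by 1.02. In all 7 of 16 tested late neutrophil genes rose (43.75% against 9.2% of all genes) and 6 fell (37.5% against 38.7%). Among primary granule genes Mpo (myeloperoxidase), the brightest of them, was at 9.28 and 9.25 in MDPs and 8.10 and 8.12 in cMoPs. It fell by 1.16 on this scale but stayed at rank percentile 99.97 of the array in both stages. Ctsc rose by 0.92 and the sign of Elane turned with the scaling. The median rank change of the primary granule list was 0.06 percentile points, against -0.32 for all genes tested.

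Interferon-stimulated genes were lower in cMoPs. Of 33 tested out of 35 listed, 26 fell (78.79% against 38.7% of all genes), 13 of them at least 2-fold, and none rose, with a median of -0.60 against -0.07 for all genes. Type I interferon acts on such genes through the ISGF3 complex of STAT and IRF factors, which binds a repeated GAAA element. To show what the promoters of the falling genes carry, the 150 bases before the RefSeq transcription start (GRCm38.p6) of 3 members that fell and of Gbp7, which did not, are printed 5′ to 3′ on the gene's strand. Capitals mark matches to the interferon response element, searched as GAAA, any pair of bases and GAAA again, or to its reverse complement, and overlapping matches run together. Isg15, a ubiquitin-like modifier, lies on the minus strand at chr4:156200819-156200968, the antiviral enzyme gene Rsad2 on the minus strand at chr12:26456453-26456602, Bst2 (tetherin) on the minus strand at chr8:71537473-71537622 and the guanylate-binding protein gene Gbp7 on the plus strand at chr3:142530186-142530335.
Isg15: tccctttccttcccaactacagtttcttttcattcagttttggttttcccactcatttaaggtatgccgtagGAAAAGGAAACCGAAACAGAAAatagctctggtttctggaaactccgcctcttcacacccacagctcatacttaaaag
Rsad2: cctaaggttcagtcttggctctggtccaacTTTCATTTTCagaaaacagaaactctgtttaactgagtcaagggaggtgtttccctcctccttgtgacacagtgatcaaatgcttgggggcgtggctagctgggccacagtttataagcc
Bst2: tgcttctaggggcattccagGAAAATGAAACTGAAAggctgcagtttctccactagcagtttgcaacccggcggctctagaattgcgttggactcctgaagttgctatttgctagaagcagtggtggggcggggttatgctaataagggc
Gbp7: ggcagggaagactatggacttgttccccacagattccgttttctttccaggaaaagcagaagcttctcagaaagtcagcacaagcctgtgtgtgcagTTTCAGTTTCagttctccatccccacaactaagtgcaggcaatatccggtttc

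In windows of 250 bases before to 50 after the start, this element was found on either strand in 16 of the 26 interferon-stimulated genes with a RefSeq promoter (61.5%), against 3.99% of all 27025 gene symbols in the promoter table and 3.78% of the tested genes in it. The element did not separate the members by direction, being present in 13 of 21 that fell and 3 of 5 that did not. Isg15 was at 0.54 and 0.45 in MDPs and -0.87 and -0.75 in cMoPs, and fell by 1.31. Bst2 was at 4.07 and 4.02 against 2.83 and 2.85 and fell by 1.20. Rsad2 was well above background in MDPs only, at least 2.08-fold higher. The chaperone gene Rtp4 fell by 2.58 and Oasl2, an oligoadenylate synthetase-like gene, by 1.97, while Gbp7 (0.73) and the chemokine gene Cxcl10 (0.85) were not called. Ifitm1, an interferon-inducible transmembrane gene that is also high in early progenitors, was at 3.00 and 2.94 in MDPs and 0.33 and 0.35 in cMoPs and fell by 2.63 ± 0.035.

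MHC class II genes fell in part. Of 9 tested 6 fell (66.67% against 38.7% of all genes) and 1 rose (11.11% against 9.2%), at a median of -0.83. H2-Ab1, a chain of the peptide-presenting molecule, was at 1.61 and 1.58 in MDPs and 0.35 and 0.38 in cMoPs, and H2-Oa and H2-Ob, which modulate peptide loading, fell by 1.55 and 1.38. H2-DMb2 was detected in cMoPs only, but its 2 cMoP arrays lay far apart, at -3.75 and -2.46. Lysosome genes centred close to all genes (median -0.13). None of the 34 rose and 15 fell (44.12% against 38.7% of all genes), 1 of them, the protease gene Lgmn at -1.84, at least 2-fold. Adhesion genes had a similar median (-0.18), and 13 of 23 fell (56.52% against 38.7% of all genes). Among them Selplg, the P-selectin ligand, was at -1.40, while the integrin genes Itga5 and Itga1 rose by 1.05 and 1.29.

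Lists of cell growth and division differed. DNA replication genes had a median of -0.22, with 16 of 30 falling (53.33% against 38.7% of all genes), none of them 2-fold, and Mcm6, a helicase subunit, at -0.91. The mitosis list had a median of 0.03. In it Cdk1, the mitotic kinase, was at 0.38 and 0.20 in MDPs and 1.71 and 1.72 in cMoPs and rose by 1.43, Kif23 rose by 1.23, and Ccnb1 and Ube2c fell by 0.80 and 0.76. The 2 other Cdk1 probes changed by 0.36 and 4.82, and the 2 other Ccnb1 probes, both detected, by -0.19 and -0.18. Ribosome assembly and MYC genes had a median of -0.30 (19 of 28 fell, none rose) and glycolysis genes of -0.50 (10 of 20 fell, none rose), with the glucose transporter gene Slc2a3 at -1.27 and Pfkm at -1.13. The shares that fell, 67.9% of the ribosome and MYC list and 50% of the glycolysis list, compare with 38.7% of all genes. By rank on the array these lists moved little. The median change of rank percentile was -0.04 for DNA replication, -0.21 for glycolysis and -0.93 for ribosome and MYC genes, against -0.32 for all genes. Mcm6 went from rank percentile 98.79 to 98.25.

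**Figure D2:**
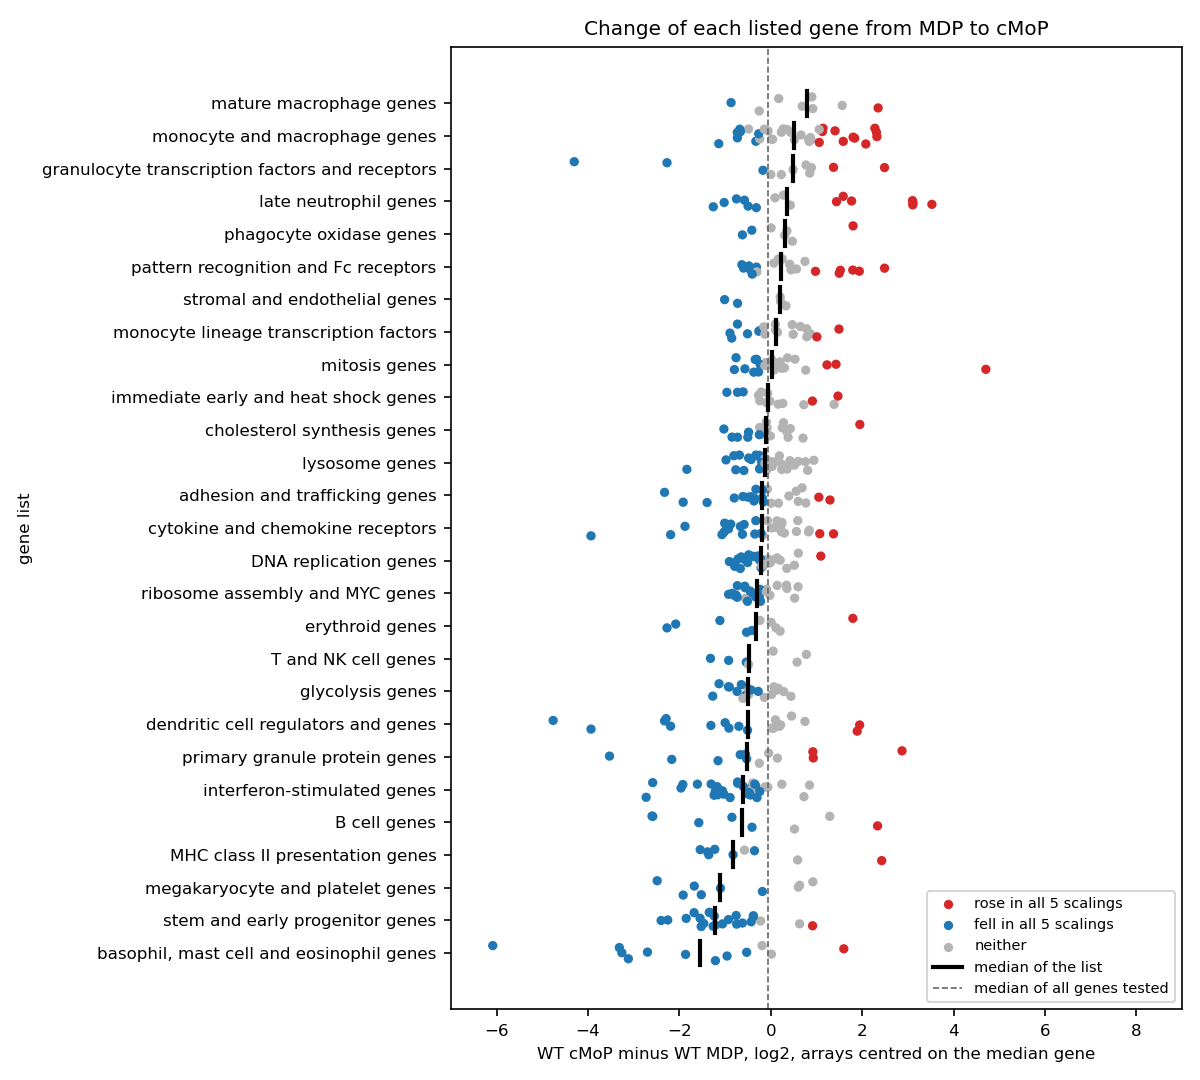
Change from WT MDP to WT cMoP (horizontal axis, log2, arrays centred on the median gene) of every tested gene in 27 lists (vertical axis), coloured red where it rose and blue where it fell in all 5 scalings and grey otherwise, with the list median as a black bar and the median of all genes tested as a dashed line. Medians run from -1.54 for basophil, mast cell and eosinophil genes and -1.21 for stem and early progenitor genes to 0.52 for monocyte and macrophage genes and 0.79 for mature macrophage genes, in which 1 of 8 tested genes rose.

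The 12 largest rises among genes detected on all 4 arrays belonged to none of the gene groups above. They were Ermn, Pnma2, Trpm1, Gab3, Rab3c, Akap7, Dcaf12l2, St6galnac1, Cabp5, Shc4, Notch1 and Lzts3, with changes from 4.55 to 6.02. Ermn, a cytoskeletal gene known from oligodendrocytes, was at -0.996 and -1.26 in MDPs and 4.96 and 4.82 in cMoPs, and Pnma2, a neuronal antigen gene, at -2.98 and -2.83 against 3.02 and 2.95. Gab3, an adaptor that acts below CSF1R, was at 0.32 and 0.09 against 5.42 and 5.28. In Irf8KO cells, whose MDP and cMoP arrays lay on the same slides, the same 12 genes changed by 4.32 to 6.502.

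Second probes of the same gene differed from the probe used for most of these 12 genes. The only other Pnma2 probe was not detected and changed by 0.04. Both other Akap7 probes were detected and changed by -0.13 and -0.68, and a detected second Shc4 probe changed by 0.94. Probes that were not detected were the 2 other Trpm1 probes (-0.31 and 0.09), the other Cabp5 probe (0.31) and the other Notch1 probe (-0.60), while the other Gab3 probe was detected and changed by 1.21. Of the 2 other Rab3c probes 1 changed by 5.25 and the other, which was not detected, by 0.00, and the second Ermn and Dcaf12l2 probes, both detected, by 2.43 and 2.63. Of the 319 genes that rose at least 4-fold, 112 had a second probe, and these 139 probes had a median change of 0.23. A detected second probe was present for 40 of these genes and showed a 2-fold rise for 22 (55%). Of the 108 genes that fell at least 4-fold, 11 had a detected second probe, which showed a 2-fold fall for 8 (72.7%). Probes of a gene can lie in different transcripts, and their sequences were not used here. Whether probe position, labelling or slide takes part in these rises was not tested.

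**Figure D3:**
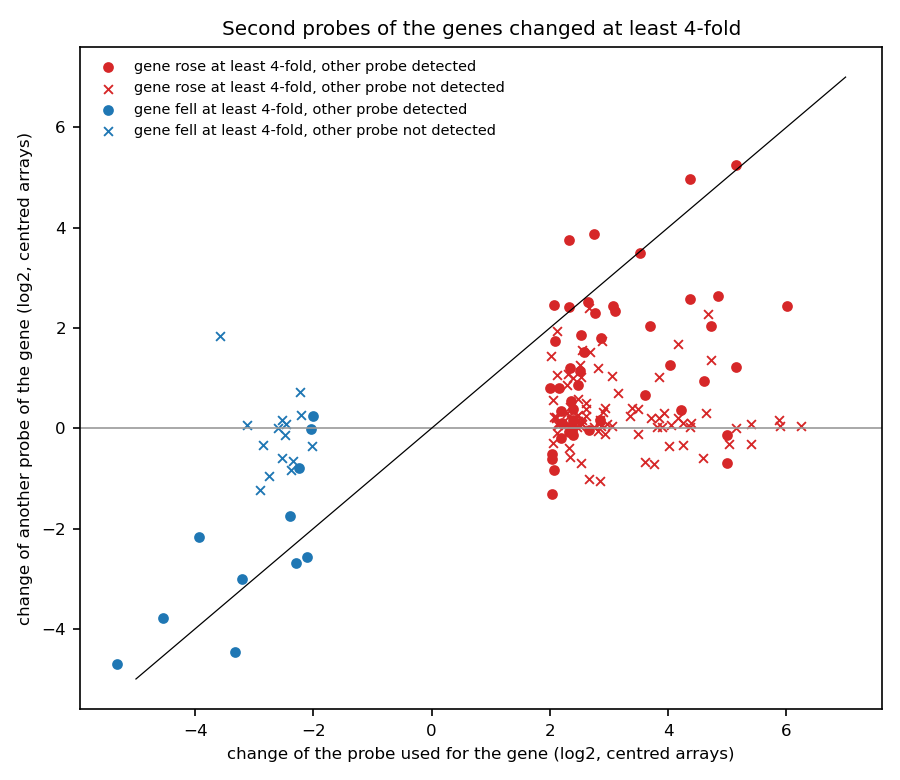
Change of each further probe of a gene (vertical axis) against the change of the probe used for that gene (horizontal axis), both WT cMoP minus WT MDP in log2 on centred arrays, for genes that rose (red) or fell (blue) at least 4-fold; circles are probes well above background on both arrays of a stage, crosses are not, and the diagonal is equality. For rises most points lie near 0 on the vertical axis (median 0.23), and for falls the circles lie near the diagonal more often, with 8 of 11 genes having a detected second probe that fell 2-fold.

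The flag for a signal well above background does not depend on the scaling, but the brighter arrays had more of them. It was set for 38.67% and 37.67% of probes on the MDP arrays and 43.14% and 43.56% on the cMoP arrays. Both MDP arrays and neither cMoP array carried the flag for 214 genes and the reverse held for 439, while 10568 genes were detected on all 4 arrays. With 1 signal threshold for all arrays these numbers were 271 and 285, and with detection by over 0.5 of a gene's probes they were 241 and 560. Leaving Xist, Y-linked and predicted genes aside, the largest lower bounds in MDPs were those of Prg2 (36.1-fold), Jakmip1 (8.11-fold), the B cell receptor gene Cd72 (7.93-fold), Ctla2b (7.33-fold), Cpa3 and Ear1. In cMoPs they were those of Cmya5 (49.2-fold), Cd300lf (19.6-fold), Ddx25 (19.3-fold), Tbx22 (17.3-fold), Slc16a7 (13.2-fold) and Sp3 (12.2-fold). Cd300lf is an inhibitory receptor of myeloid cells, and its 2 other probes changed by 1.36 and 2.03. The other probes of Cmya5 and Tbx22 were not detected and changed by 0.16 and 0.04. Aurkb, a mitotic kinase, was detected in cMoPs only and was at least 6.46-fold higher, on a single probe.

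The step was then set beside the same step in Irf8KO mice. Arrays of a stage shared a slide, so a slide difference equal for both genotypes drops out of the difference between the steps. A slide or sex difference shared by both genotypes stays in each step, so steps that are alike do not measure stage separately. Irf8 itself was at 5.46 and 5.46 on the Irf8KO MDP arrays and 4.30 and 4.33 on the Irf8KO cMoP arrays, well above background, and which part of the gene the knockout removes is not stated, so this probe does not check it. Positions on a slide differed by genotype as well, and position and genotype cannot be told apart. The WT step was above the Irf8KO step in all 5 scalings for 1369 genes (11.4%) and below it for 461 (3.85%). The first count fell to 908 without the second WT cMoP array. Among single scalings the numbers were 3713 above and 498 below with the array median, 1592 and 1390 with the 75th percentile, 1400 and 1705 with that percentile over detected probes, and 1639 and 1458 with centred arrays.

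Of the genes that rose at least 4-fold in WT, 314 of 319 also differed at least 2-fold in the same direction in Irf8KO cells, and for 30 (9.4%) the steps differed. Of those that fell, 86 of 108 moved 2-fold in the same direction, and for 42 (38.9%) the steps differed. Over all genes tested the WT step was above the Irf8KO step for 11.4% and below it for 3.85%. Loss of Flt3 signal was present in both, at -3.94 in WT and -4.94 in Irf8KO. Dntt went from 4.18 and 4.15 to -3.56 and -3.43 in Irf8KO cells, a change of -7.66, so that its WT step was 2.89 ± 0.13 less negative. The interferon-stimulated and stem cell medians were alike, at -0.63 and -1.11 in Irf8KO against -0.60 and -1.21 in WT.

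Named genes with the largest differences between the steps included granule, basophil and monocyte genes. S100a9 was at -2.44 and -2.23 in Irf8KO MDPs and 5.92 and 6.02 in Irf8KO cMoPs, a change of 8.31 against 3.102 in WT, and Camp changed by 7.97 against 3.53, with Camp not detected in Irf8KO MDPs. The median change of late neutrophil genes was 2.52 in Irf8KO against 0.35 in WT, with the WT step below the Irf8KO step for 14 of 16 genes (and for 3.85% of all genes). Ear2 was not detected in Irf8KO MDPs and was at -3.86 and -3.96 in Irf8KO cMoPs, so its fitted steps of 2.78 in Irf8KO and -3.53 in WT rest in part on values not well above background. Cx3cr1 was at 3.37 and 3.38 against -0.22 and -0.09 in Irf8KO cells, a change of -3.53 against -0.67 in WT (difference 2.87 ± 0.068, adjusted p 6.22e-09, limma). Klf4 changed by 0.13 in Irf8KO cells, where it was low in both stages, against 1.49 in WT, and Csf1r by -0.9985 against -0.33. Of 27 mitosis genes 23 had a WT step above the Irf8KO step (as had 11.4% of all genes), with list medians of 0.03 and -0.41.

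**Figure D4:**
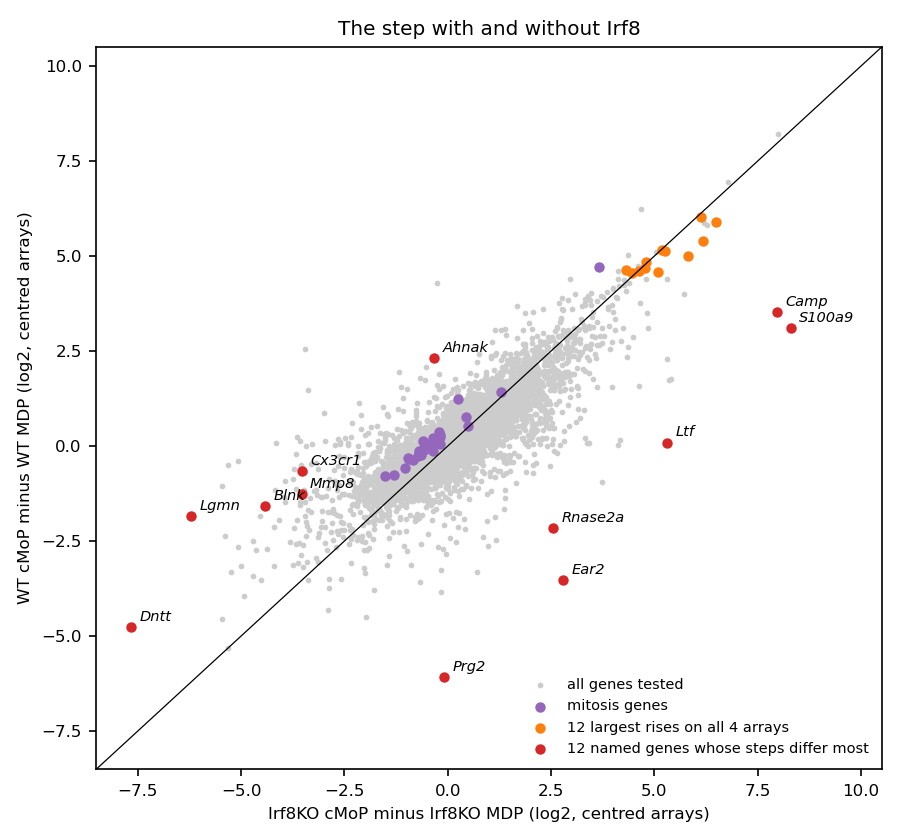
WT cMoP minus WT MDP (vertical axis) against Irf8KO cMoP minus Irf8KO MDP (horizontal axis), both in log2 on centred arrays, for all 11964 genes tested (grey), the 27 mitosis genes (purple), the 12 largest rises on genes detected on all 4 WT arrays (orange) and the 12 named genes whose steps differed most (red, labelled); the line is equality. The orange points lie along the line, at 4.32 to 6.502 on the horizontal axis, while Camp, S100a9 and Ltf lie far to the right of it and Lgmn, Cx3cr1 and Ahnak above it.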

How the data were processed

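RNA of sorted bone marrow progenitors was extracted with a micro-scale column kit, amplified and labelled with Cy3, per the labels' protocols, and each sample was hybridised to its own array. The deposited intensity values were read with Agilent Feature Extraction 10.7.3.1, per the file headers, and the processed signal is background-subtracted and detrended within the array, with no scaling between arrays. The deposited 0 or 1 flags for signals well above background, outliers and saturation, another unit (other), come from the same software per the file headers. Later steps by the authors are not given in the sources used here, but each column of the deposited series values was the processed signal times a constant, with one 75th percentile per slide.

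Here control spots and outlier spots (102 to 198 per progenitor array) were left out, spots of a probe were averaged, and probes were named through RefSeq accessions of GRCm38.p6. Of 55681 probes 26762 matched 1 symbol, 28919 none and 0 several. The log2 signal was scaled to the array's 75th percentile, genes with a probe well above background on both arrays of at least 1 progenitor group were kept with their brightest probe, and limma 3.58.1 (R 4.3.3) was fitted to 8 progenitor arrays with 4 group means, an intensity trend and Benjamini-Hochberg adjustment over 11964 genes. The scalings were the 75th percentile, the array median, the 75th percentile over probes detected on all 8 arrays, quantile normalization, and centring on the median of the genes tested. Printed changes and standard errors come from the last, and the p of a difference between steps from the first. The array number limits precision, and nothing states how many animals stand behind a sample, so p-values measure the spread between these arrays.

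A bound ("at least N-fold") sets the bright stage's mean against, per array of the dim stage, the higher of the faintest detected signal and the probe's own. Same-numbered arrays did not deviate together (residual correlations from -0.025 to 0.0712), so the numbers were not used as pairs. No mean signal was used for the normexp alternative, which took the median spot signal instead and added an offset of 50 signal units.

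The gene groups and lists (28 lists, 600 entries) were chosen with earlier results of these data known, and the requirement of a call in all 5 scalings was chosen after seeing the data. Named are the 12 largest rises and falls among called genes detected on all 4 WT arrays, the 6 largest bounds per stage, up to 4 called members per list and direction, stage markers, and the 6 largest differences between genotypes in each direction. Bst2, Cd177, Cebpa, Elane, Fn1, Gata2, Hlf, Irf8, Isg15, Lyz2, Meis1, Wfdc21, Spi1, Cebpb, Gbp7, Cxcl10 and members named without a call were chosen after their values were seen, as were second probes. Predicted genes were counted, not named. They made up 29 of the 319 rises and 1 of the 108 falls of at least 4-fold.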

Additional observations from a re-analysis of the deposited data

Results flagged for a closer look

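The 12 genes given here had the 6 largest differences between the WT and Irf8KO steps in each direction among the named genes. Other named genes, such as Klf4 and Csf1r, also passed limma's test of that difference. Each difference below is the WT step minus the Irf8KO step in log2. The difference was negative for Ear2 (-6.31), Prg2 (-5.99), Ltf (-5.21), S100a9 (-5.20), Rnase2a (-4.71) and Camp (-4.45). It was positive for Lgmn (4.38), Dntt (2.89), Cx3cr1 (2.87), Blnk (2.84), Ahnak (2.65) and Mmp8 (2.28). Ear2, Prg2, Rnase2a, Camp and Ltf were not well above background on the Irf8KO MDP arrays, and Lgmn was not on the Irf8KO cMoP arrays, so these sizes rest in part on values without a measured level. Prg2 was detected in WT MDPs alone, and its difference is that of the WT step. S100a9, Dntt, Cx3cr1, Ahnak and Mmp8 were well above background on all 8 arrays. Mmp8, a neutrophil collagenase, was at 3.66 and 3.70 in Irf8KO MDPs and 0.20 and 0.09 in Irf8KO cMoPs, so it fell in both genotypes and by more in Irf8KO.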

How the results depend on the processing

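The scaling moved the counts of all calls, and the background correction and the probe filter those of large changes. Of all genes, 1956 were higher and 7780 lower in cMoPs with the 75th percentile. The numbers were 1155 higher with the array median, 4290 higher and 4851 lower with the percentile over probes detected on all 8 arrays, 2959 higher after quantile normalization, and 3996 and 5163 with centred arrays. At least 4-fold changes, 205 higher and 185 lower in that first scaling, became 327 lower with the array median, 351 and 103 with the percentile over detected probes, 325 and 108 with centring, 58 and 43 with normexp, 65 and 72 with probes detected on all 4 WT arrays, and 89 and 89 when signals below the faintest detected one were set to it. The 319 rises and 108 falls of at least 4-fold over 5 scalings became 111 and 30 with probes detected on all 4 WT arrays. The WT step was above the Irf8KO step for 1592 genes and below for 1390 in the first scaling, and for 3713 and 498 with the array median. Genes detected in cMoPs alone numbered 439 by the flag and 285 with 1 threshold.

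Leaving out each WT array in turn gave 1628 to 1881 genes higher, 7404 to 7647 lower, 206 to 230 and 182 to 203 changed at least 4-fold, and 854 to 1072 rises and 4154 to 4424 falls over 5 scalings, of which 305 to 341 and 103 to 116 were at least 4-fold. The WT step was above the Irf8KO step for 1046 to 1785 genes (1046 without the second WT cMoP array) and below for 890 to 1442 (890 without the first WT cMoP array), or 908 to 1464 and 329 to 453 over 5 scalings. With the replicate block the numbers were 1945 higher and 7773 lower, 1537 above and 1327 below the Irf8KO step, and it moved no count by over 1.5 times. Slide could not be a block, since each stage lay on its own slide.

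List medians minus the median of all genes changed sign in these cases, and the cause was not tested. After quantile normalization they were 0.23 for primary granule, 0.09 for lysosome, 0.05 for DNA replication and -0.13 for stromal genes. With normexp they were -0.22 for late neutrophil, 0.17 for lysosome, 0.16 for cytokine receptor, 0.06 for adhesion, 0.18 for DNA replication, 0.06 for cholesterol, -0.17 for stromal and -0.64 for mature macrophage genes. They were -0.05 for mitosis genes with no filter and 0.47 for T and NK cell genes with dim signals set to that floor. Cholesterol genes gave 0.01 with probes detected on all 4 WT arrays and -0.08 to 0.02 when each WT array was left out (0.02 without WT_MDP replicate 1), and stromal genes -0.09 to 0.37 (-0.09 without WT_MDP replicate 2). These named genes were called in opposite directions. Cebpa was at -0.33 in the first scaling, 0.14 over detected probes, 0.12 quantile, 0.22 normexp and 0.10 centred. Elane was lower in the first scaling but at 0.19 over detected probes, 0.79 quantile, 0.39 normexp and 0.14 centred. After quantile normalization F13a1 (0.10), Ly6c1 (0.33) and Ms4a6c (0.12) were reversed, and Ms4a4c (-0.18) was with the mean of its probes. With normexp the reversed genes were Ms4a6c (0.14), Clec12a (-0.48), Clec5a (-0.53), Cxcl10 (-0.45), Junb (-0.41), Ngp (-0.53), Cd177 (-0.44), Fosb (-0.72) and Tpsb2 (-0.34). The normexp offset of 50 signal units enters all normexp values given here and weighs most on dim genes. Signal near background limits the size of changes in genes detected in 1 stage.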

Other observations

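Immediate early genes respond within minutes to stress and to cell handling. In the list that joins them with heat shock genes 2 of 15 rose (13.33% against 9.2% of all genes) and 3 fell (20% against 38.7%). Jun was at 0.29 and 0.24 in MDPs and 1.21 and 1.13 in cMoPs and rose by 0.91, and Junb, detected in cMoPs alone, was at least 2.20-fold higher there, though called lower with normexp (-0.41), while Jund fell by 0.96. The chaperone genes Hsp90aa1 and Dnajb1 fell by 0.73 and 0.61. Fos (0.72) and Fosb (1.39) were not called in all 5 scalings.

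Among genes that fell at least 4-fold and have a RefSeq promoter, 7 of 85 held the ETS-IRF composite element, searched as GGAA, any pair of bases and GAAA, on either strand (8.24%), against 2.86% of the tested genes with a promoter and 3.56% of those that rose at least 4-fold. The GATA element was in 15.3% of promoters of genes that fell and 14.6% of those that rose at least 4-fold, against 8.2% of the tested genes and 12.7% of all promoters. TTGCNNAA, a C/EBP element, was in 11.8% and 12.6% against 10.4% of the tested genes. GGGNGTGG, a KLF element, was in 21.2% and 19.8% against 25.9%, and the MYC E-box in 9.41% and 7.91% against 11.8%. These shares are a description of windows of 250 bases before to 50 after the start.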
